A study of Mus musculus with 24 samples.

Results

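The miR-183 cluster consists of miR-183, miR-96 and miR-182, 3 microRNAs that are cut from neighbouring hairpins of one primary transcript. The members were taken by assay name, mmu-miR-182, mmu-miR-96 and mmu-miR-183, and are 3 of the 584 miRNA assays on a pair of TaqMan low density array cards, A and B. All 3 lie on card A. Quantitative PCR was run on 4 groups of mouse cells with 3 replicates each: PYS, L-1210, M1 and CT-BM. PYS is a teratocarcinoma line that grows attached with an epithelial-like shape, L-1210 a lymphocytic leukaemia line, and M1 a myeloid leukaemia line, all at passage 3. CT-BM is bone marrow flushed from the femur and tibia, and the labels also describe it as cells grown in suspension, so how far it was cultured before extraction is not known. The labels give no genotype, strain, age or treatment for any group. They also do not say that replicates came from separate cultures or animals, so the p-values cover only sample-to-sample spread, and that spread may be technical.

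The cluster is known from sensory organs of the mouse, such as the retina, the hair cells of the inner ear and sensory neurons, where its members are expressed together. Changes in the seed of miR-96 cause progressive hearing loss in mice and humans. MiR-182 is also known outside the sensory system, for example in activated mouse T cells. A microRNA guides the silencing of messenger RNAs that pair with its seed, bases 2 to 8 from the 5′ end, so related seeds give related sets of targets.

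The mature sequences that carry the comparison are given 5′ to 3′ from RefSeq, matched by name, with the seed in capitals. The names of all 3 members and of one further assay, mmu-miR-183*, matched an entry. The deposited table gives no sequence for its assays.
mmu-miR-183-5p: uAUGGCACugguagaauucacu
mmu-miR-96-5p: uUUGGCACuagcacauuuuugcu
mmu-miR-182-5p: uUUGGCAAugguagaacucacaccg
mmu-miR-183-3p: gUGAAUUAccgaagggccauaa

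In build GRCm38.p6 the members lie on the minus strand of chromosome 6, in the order of transcription miR-183 (chr6:30169711-30169732), miR-96 (chr6:30169506-30169528) and miR-182 (chr6:30165962-30165986). The hairpins span 3820 bases. A gap of 116 bases separates Mir183 from Mir96, and 3453 bases separate Mir96 from Mir182. The annotated long noncoding RNA gene Mirc35hg overlaps the span of the hairpins, and the nearest protein-coding genes on either side are Nrf1 and Ube2h. Counted without gaps from the 5′ end, miR-182 and miR-183 shared 18 of 22 bases. MiR-182 and miR-96 shared 12 of 23, and miR-96 and miR-183 shared 13 of 22. In the seed, miR-96 matched each of the other members at 6 of 7 bases, whereas miR-182 and miR-183 matched at 5 of 7. Among 1738 mature mouse sequences in the RefSeq table, miR-1271-5p was the only other one with the seed of a member, that of miR-96, and the cards carry no assay of that name.

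The hairpin of miR-183 gives a second measured product, miR-183*, whose assay sits on card B. It is the only other arm of the 3 hairpins with an assay on the cards. The Mir183 hairpin (chr6:30169668-30169737, minus strand) is shown because both of its arms, in capitals, were measured.
Mir183: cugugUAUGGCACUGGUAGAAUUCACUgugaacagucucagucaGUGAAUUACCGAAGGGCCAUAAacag

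The values are cycle thresholds (Ct), the PCR cycle at which a product is seen, so that a lower Ct means more template and 1 cycle is about a doubling. A well without a product was undetermined and was set to a limit of Ct 35. Level here means the negative difference between an assay's Ct and the mean Ct of 3 endogenous controls (MammU6, snoRNA135 and snoRNA202) from that replicate's card, a log2 scale on which a higher value means more. Across the 4 groups, 48.3% of the 8969 wells were undetermined. The share of miRNA assays detected averaged 53.8% ± 0.44 in PYS, 48.6% ± 0.748 in L-1210, 44.7% ± 0.383 in M1 and 51.7% ± 0.852 in CT-BM (SD, n = 3 each). The mean Ct of the 3 controls on card A was 13.9 ± 0.372 in PYS, 13.8 ± 0.476 in L-1210, 12.5 ± 0.334 in M1 and 14.8 ± 0.278 in CT-BM (SD, n = 3 each). The 9 listed miRNAs of embryonic stem cells (miR-290 and miR-302 families) were all called higher in PYS than in each other group. Over all assays tested, 39.8% were called higher in PYS against CT-BM, 45.9% against L-1210 and 46% against M1. Of the 9, miR-291a-3p, miR-293 and miR-302d were detected in PYS alone and entered these tests only through it. Against CT-BM, miR-292-3p, miR-295, miR-302b and miR-367 also entered only through PYS. So did miR-294 and miR-302b against L-1210, and miR-292-3p, miR-294 and miR-302a against M1. The count of 9 is therefore not read against these shares. MiR-223, a granulocyte miRNA, had a mean Ct of 31.3 in PYS and 13.5 in CT-BM. The blood miRNA miR-142-3p was detected in every replicate of the leukaemia lines and CT-BM. Its mean Ct was 17.8 in L-1210, 17.5 in M1 and 17.5 in CT-BM. Scaled to the controls, it was called lower in M1 than in CT-BM (log2 change -2.35) and not called in L-1210 (-1.27). MiR-142-5p was called lower than in CT-BM in both leukaemia lines (-1.57 in L-1210 and -2.15 in M1). The lymphocyte miRNA miR-150 had a mean Ct of 26.3 in L-1210, 19.9 in M1, 25.0 in PYS and 16.6 in CT-BM. The listed erythroid (2 of 2) and stromal (4 of 4) miRNAs were called lower in all 3 lines than in CT-BM. Over all assays tested, 38.7% were called lower in PYS, 45.6% in L-1210 and 44.3% in M1. MiR-486, miR-143 and miR-214 were detected in CT-BM alone and entered only through it. So did miR-451 against both leukaemia lines and miR-145 against L-1210, so these counts are not read against those shares. How much the mixture of cells in CT-BM contributes to the differences below was not tested. In such bulk samples, fewer cells that express a miRNA and less of it per cell cannot be told apart.

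All 3 members of the cluster were detected in every PYS replicate, and miR-182 was the only one detected anywhere else. MiR-182, the last hairpin of the cluster, had Ct values of 19.9, 18.6 and 19.6 in PYS. In L-1210 its Ct was 28.9, 29.4 and 28.6. In M1 it was 31.96, 31.96 and 30.48, and in CT-BM 29.25, 29.98 and 30.29. Every PYS replicate thus reached the threshold well before any other replicate, the M1 replicates were the latest, and L-1210 and CT-BM overlapped.

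MiR-183, the first hairpin, had Ct values of 23.5, 22.6 and 24.0 in PYS and was undetermined in all 9 replicates of L-1210, M1 and CT-BM. MiR-96, the middle hairpin and the member known from hereditary deafness, had Ct values of 26.5, 25.5 and 27.0 in PYS and was also undetermined in the other 9 replicates. Of the 584 assays, 37 showed this pattern of detection in every PYS replicate and in no replicate of the other groups. MiR-96 and miR-183 were among those 37, while 204 assays were detected throughout and 204 in no replicate.

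**Figure D1:**
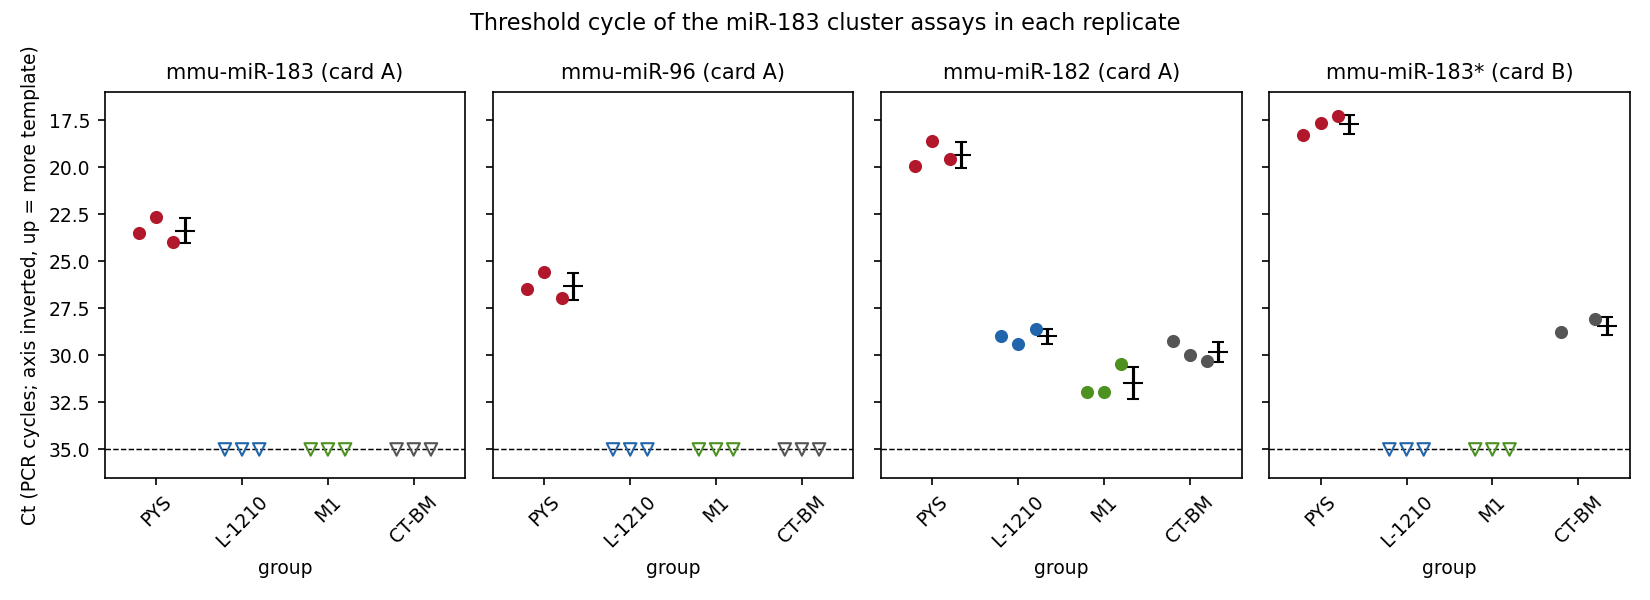
Ct of each member and of miR-183* in every replicate of PYS, L-1210, M1 and CT-BM (y axis: Ct in PCR cycles, inverted so that more template lies higher). Open points at the limit of 35 are undetermined wells; PYS lies highest in every panel, and outside PYS only miR-182 and, in CT-BM, miR-183* were detected.

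Scaled to the endogenous controls, the level of miR-182 was -6.01, -5.11 and -5.35 in PYS, and -15.13, -15.11 and -15.28 in L-1210. It was -19.12, -19.70 and -18.21 in M1, and -14.74, -14.92 and -15.42 in CT-BM. PYS did not overlap any other group, M1 lay below all others, and L-1210 lay within the range of CT-BM. An exact permutation test of the spread between the 4 groups gave p = 0.000325 for miR-182 (12 replicates, adjusted p = 0.000325 over the 3 members). For miR-96 and miR-183 the exact permutation p was 6.49e-05, the smallest that 369600 assignments can give (adjusted p = 9.74e-05), but 9 of their 12 values are the limit minus the controls and not measured levels. In PYS the level was -9.50 ± 0.31 for miR-183 and -12.46 ± 0.35 for miR-96 (SD, n = 3 each), against -5.49 ± 0.47 for miR-182. Assays amplify with different efficiency, so these levels do not rank the members by abundance.

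In PYS against CT-BM, which sets the teratocarcinoma line against bone marrow, all 3 members of the cluster were higher. The level of miR-182 averaged -5.49 ± 0.47 in PYS and -15.03 ± 0.35 in CT-BM (SD, n = 3 each), a 743-fold difference (log2 change 9.54 ± 0.36 SE, limma adjusted p = 2.24e-11). MiR-183 was at least 1651-fold higher in PYS (limma adjusted p = 9.19e-13), and miR-96 at least 212-fold higher (limma adjusted p = 2.67e-11). These are lower bounds because CT-BM was at the limit of 35. The spread of both in CT-BM is that of the controls alone, so their p-values do not measure a spread of these miRNAs there. The same holds for the p-value of every bound given below, in the group at the limit. An assay was called where it differed 2-fold or more with an adjusted p under 0.05. By that rule the 3 members were called, while 39.8% of the 362 assays tested were called higher and 38.7% lower. MiR-96 and miR-183 entered the test only through PYS, where they are high, so their share is not read against that background. With the limit at Ct 32 the log2 bound was 7.69 for miR-183 and 4.73 for miR-96, and the log2 change of miR-182 ranged between 8.62 and 12.90 over the alternative settings.

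Among the 251 assays detected in every measured replicate of both groups, miR-182 had the 3rd highest change in PYS against CT-BM. MiR-302a (log2 change 12.67) and miR-294 (10.47), both embryonic stem cell miRNAs, stood above it. MiR-183* followed in 4th place. When assays with bounds are included, miR-183 was 19th, miR-182 26th, miR-183* 27th and miR-96 39th of the 362.

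**Figure D2:**
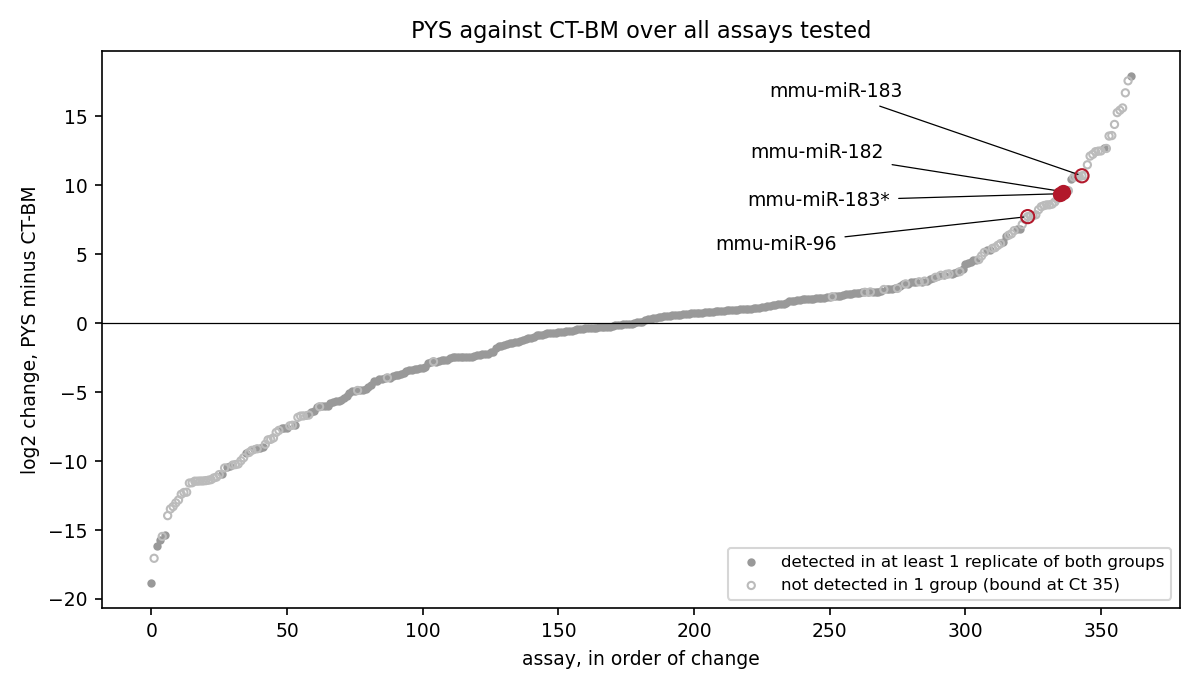
Log2 change in PYS minus CT-BM (y axis) of the 362 assays tested, in order of change (x axis). Filled points were detected in at least 1 replicate of both groups and open points are bounds at the Ct limit; the 3 members and miR-183* lie between 7.73 and 10.69, near the upper end.

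PYS was also set against the leukaemia lines. In PYS against L-1210, miR-182 was 822-fold higher (log2 change 9.68 ± 0.36 SE, limma adjusted p = 1.33e-11), at -5.49 ± 0.47 in PYS and -15.17 ± 0.10 in L-1210 (SD, n = 3 each). The bounds were at least 3309-fold for miR-183 (limma adjusted p = 2.49e-13) and at least 425-fold for miR-96 (limma adjusted p = 5.26e-12). All 3 members were called higher, and over the 351 assays tested 45.9% were called higher and 27.6% lower. MiR-96 and miR-183 were again tested only through PYS, so nothing is read from their count. MiR-182 was the 6th highest of 244 assays detected in both groups.

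In PYS against M1 the difference in miR-182 was 11760-fold (log2 change 13.52 ± 0.36 SE, limma adjusted p = 3.93e-13), with a level of -5.49 ± 0.47 in PYS and -19.01 ± 0.75 in M1 (SD, n = 3 each). MiR-183 was at least 8456-fold higher in PYS (limma adjusted p = 8.69e-14) and miR-96 at least 1085-fold higher (limma adjusted p = 1.10e-12). All 3 members were called higher, and over the 341 assays tested 46% were called higher and 27.3% lower. The same limit holds for the count of miR-96 and miR-183 here. MiR-182 ranked 4th of the 230 assays detected in both groups. The bounds are largest against M1 because the controls reached the threshold earliest there, which places the limit lowest, at a mean level of -22.55 in M1 against -21.19 in L-1210 and -20.19 in CT-BM.

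Outside PYS only miR-182 could be compared, since miR-96 and miR-183 were at the limit on both sides and have no fold there. In L-1210 against CT-BM the level of miR-182 was -15.17 ± 0.10 in L-1210 and -15.03 ± 0.35 in CT-BM (SD, n = 3 each), a difference of -0.15 ± 0.36 (SE) on the log2 scale (limma adjusted p = 0.718), which did not pass the test. Of 333 assays, 22.5% were called higher and 45.6% lower in L-1210. Both the direction and the call depended on the scaling. MiR-182 was called higher in L-1210 with MammU6 alone (log2 difference 1.60) and under quantile normalization (4.56). It was called lower with snoRNA202 alone (-1.78) and with both snoRNAs (-1.02). With no control the difference was 0.86 and was not called.

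In M1 against CT-BM, miR-182 fell, at -19.01 ± 0.75 in M1 and -15.03 ± 0.35 in CT-BM (SD, n = 3 each). It was 15.8-fold lower (log2 change -3.98 ± 0.36 SE, limma adjusted p = 4.36e-07), in a comparison where 25.2% of 325 assays were called higher and 44.3% lower. Without any control the log2 change was -1.63. Under quantile normalization, which sets the 12 replicates to 1 distribution, the log2 change was 3.83 and miR-182 was called higher in M1. The cause of this reversal was not tested. All of the controls came up earlier in M1 than in CT-BM. MammU6 had a mean Ct of 7.91 in M1 and 10.1 in CT-BM. SnoRNA135 was at 16.3 in M1 and 18.5 in CT-BM, and snoRNA202 at 13.2 in M1 and 15.9 in CT-BM.

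Between the leukaemia lines, miR-182 was 14.3-fold higher in L-1210 than in M1 (log2 change 3.84 ± 0.36 SE, limma adjusted p = 7.71e-07), where 25.2% of 306 assays were called higher and 30.7% lower. The log2 change was 0.73, short of 2-fold, under quantile normalization. With the mean of the 3 controls, the order of the groups by level of miR-182 was PYS, then CT-BM and L-1210, which did not differ beyond their spread, then M1. PYS was highest under every scaling tried, but the place of CT-BM was not fixed: it lay below both L-1210 and M1 under quantile normalization, and its order with L-1210 changed with the control.

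**Figure D3:**
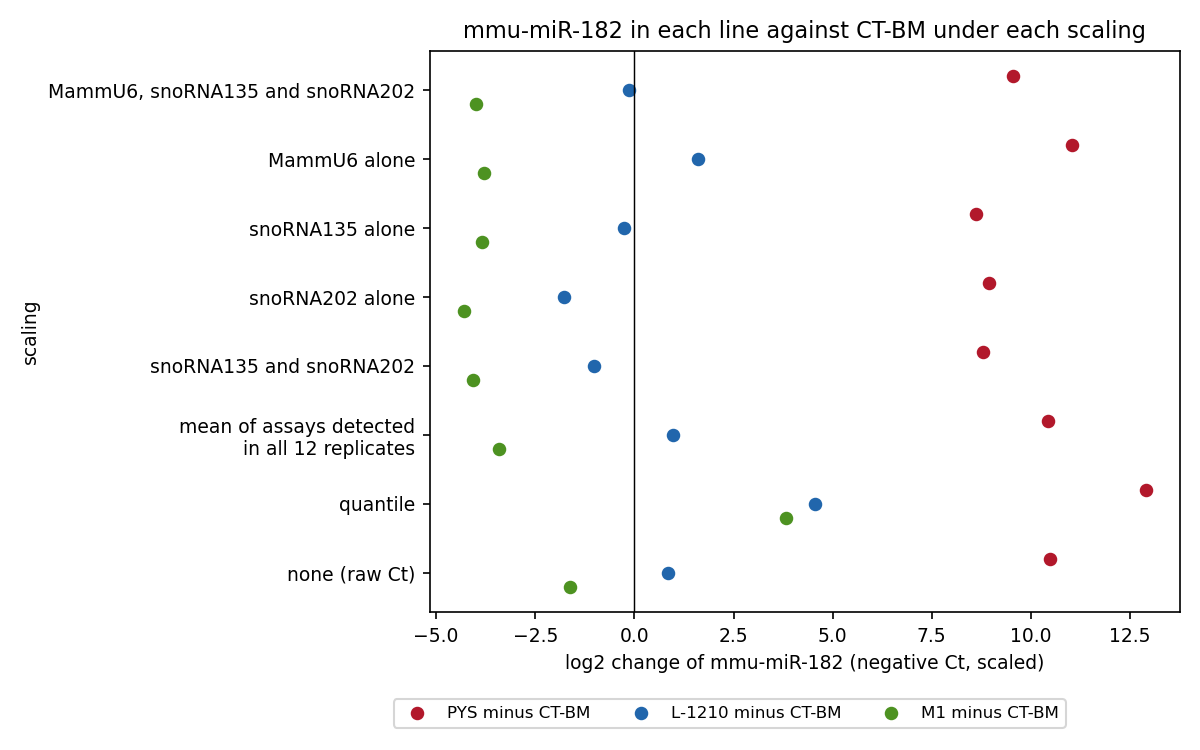
Log2 change of miR-182 (x axis) in PYS, L-1210 and M1, each minus CT-BM, under each scaling of the Ct values (y axis). PYS stays between 8.62 and 12.90, L-1210 lies on either side of 0, and M1 is below 0 except under quantile normalization.

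MiR-183*, the 3′ arm of the miR-183 hairpin, was detected in PYS and CT-BM. Its mean Ct was 18.3, 17.6 and 17.3 in PYS, and all 6 wells were undetermined in each of L-1210 and M1. In CT-BM it was 28.8 in replicate 1, where 1 well was present, and 28.1 in replicate 3, where the wells read 28.9 and 27.2; replicate 2 has no value in the table. Bone marrow thus gave a product for the 3′ arm of a hairpin whose 5′ arm, on the other card, was undetermined in all 3 of its replicates. Of the 584 assays, 17 were detected in PYS and CT-BM alone, miR-183* among them.

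The level of miR-183* averaged -4.80 ± 0.24 in PYS (SD, n = 3) and -14.19 ± 1.13 in CT-BM (SD, n = 2), 669-fold higher in PYS (log2 change 9.39 ± 0.43 SE, limma adjusted p = 6.62e-10). It was at least 192668-fold higher in PYS than in L-1210 (limma adjusted p = 3.87e-13) and at least 236623-fold higher than in M1 (limma adjusted p = 3.18e-13). Against CT-BM it was at least 288-fold lower in L-1210 (limma adjusted p = 5.37e-09) and at least 353-fold lower in M1 (limma adjusted p = 4.16e-09), with CT-BM resting on 2 replicates. MiR-182, from another hairpin of the cluster, was not called in L-1210 against CT-BM, as given above.

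The Ct difference between members on one card needs no control. In PYS, miR-183 came up 3.57, 4.05 and 4.42 cycles after miR-182, and miR-96 came up 6.57, 6.95 and 7.39 cycles after it. The gap between miR-96 and miR-183 was 3.00, 2.90 and 2.98 cycles, with an SD of 0.052. That spread was below the SD of either gap to miR-182, 0.412 for miR-96 and 0.428 for miR-183. The gap between the products of the neighbouring hairpins, Mir183 and Mir96, was thus the steadiest of the 3 gaps over the PYS replicates, a description of 3 values with no test.

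In the other groups the undetermined wells give lower bounds on the gap to miR-182, the same for miR-183 and miR-96. The bounds were 6.05, 5.61 and 6.39 cycles in L-1210, 3.04, 3.04 and 4.52 in M1, and 5.75, 5.02 and 4.71 in CT-BM. For miR-183, every bound in L-1210 and CT-BM lay above the PYS gaps, on average by 2.01 cycles in L-1210 and 1.15 in CT-BM, while the M1 bounds overlapped them. For miR-96, every bound in all 3 groups lay below the lowest PYS gap of 6.57, so at this limit a gap as wide as that of PYS would not be seen there. With the limit at Ct 32 no bound lay above the PYS gaps for either member, and at Ct 40 all did. The gaps were not tested between groups, because both members of a pair were measured in PYS alone, and an exact permutation test of 3 bounds against 3 gaps cannot go below p = 0.1.

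**Figure D4:**
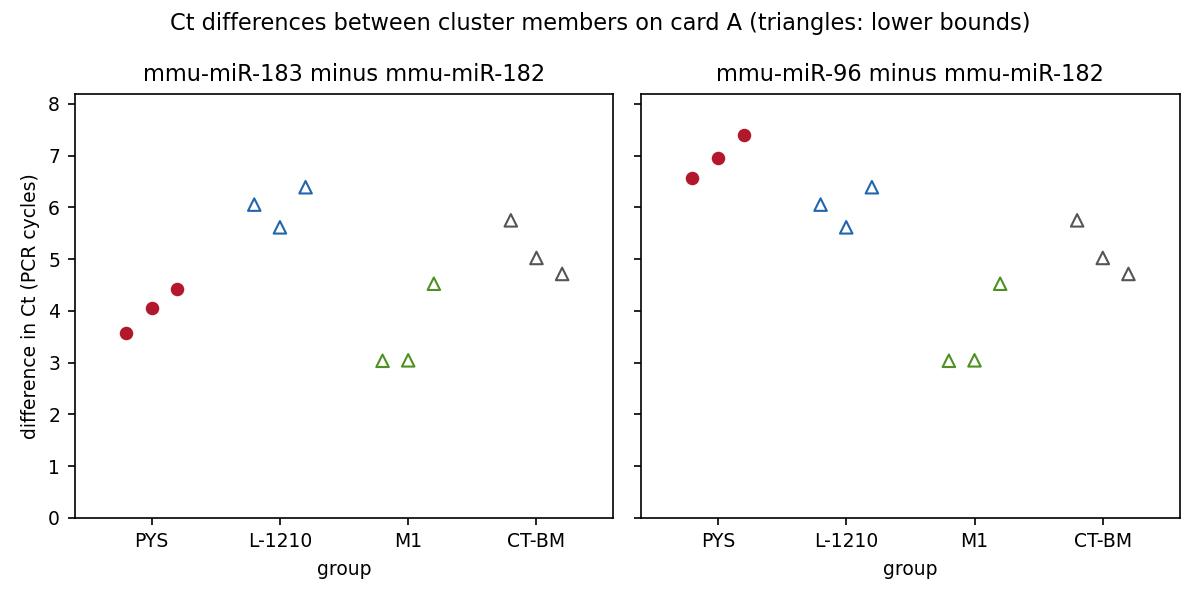
Ct of miR-183 and of miR-96 minus the Ct of miR-182 on the same card (y axis, cycles) in each replicate of PYS, L-1210, M1 and CT-BM. Filled points are measured and open triangles are lower bounds at Ct 35. For miR-183 the L-1210 and CT-BM bounds lie above the PYS points, and for miR-96 every bound lies below them.

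Over the 12 replicates the levels of miR-96 and miR-183 correlated at r = 0.998, those of miR-182 and miR-96 at 0.983, and those of miR-182 and miR-183 at 0.978. These describe 1 high group against 3 low ones, and the limit values of miR-96 and miR-183 share the same controls. Of 256 candidate mouse assays, those most like the members by mean r were miR-499 (0.994), miR-342-5p (0.994), miR-291b-5p (0.993), miR-187 (0.993) and miR-302c (0.993). All 5 were undetected in the 9 replicates outside PYS, so their likeness rests on the shared limit there.

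The miR-200 family and other epithelial miRNAs were set beside the cluster because PYS is labelled epithelial-like, and most of those listed were not called higher. In PYS against CT-BM, 1 of 7 listed epithelial miRNAs was called higher, 4 were called lower and 2 were not called. Their median log2 change was -1.61 against 0.08 over all assays tested, of which 39.8% were called higher and 38.7% lower. MiR-141, undetected in the 2 PYS replicates that have it, was at least 174-fold lower in PYS (limma adjusted p = 7.27e-11), and miR-203, a keratinocyte miRNA, at least 3091-fold lower (limma adjusted p = 6.66e-10). Both entered the test only through CT-BM. MiR-200c was 16.7-fold lower (log2 change -4.06 ± 0.25 SE, limma adjusted p = 5.02e-09), while miR-200a was 2.60-fold higher. The split was 2 higher and 3 lower with MammU6 alone and 0 higher and 5 lower with snoRNA135 or snoRNA202 alone.

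Against L-1210, 1 of 6 epithelial miRNAs tested was called higher in PYS, 2 lower and 3 not called. Their median log2 change was -0.22 against 0.70 over all assays, of which 45.9% were called higher and 27.6% lower. Against M1, 1 of 7 was higher, 3 lower and 3 not called. The median there was 0.12 against 0.67 over all assays, of which 46% were called higher and 27.3% lower. The epithelial splits moved with the scaling too. They were 3 higher and 1 lower against L-1210 with snoRNA202 alone, and 4 higher and 2 lower against M1 with MammU6 alone. In L-1210 against CT-BM 1 was called higher and 4 lower of 7, where 45.6% of all assays tested were lower. In M1 against CT-BM 0 were higher and 4 lower of 7, where 44.3% of all assays were lower. In L-1210 against M1, 0 were called higher and 1 lower of 6, where 25.2% of all assays were higher and 30.7% lower. Here too, where miR-141, miR-203 or miR-205 was undetected in 1 group, it entered only through the other.

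The listed miRNAs of sensory and neural tissue were also mixed. In PYS against CT-BM, 2 of 4 tested were called higher and 2 lower, and this split was the same under every scaling. The median log2 change was -3.27 against 0.08 over all assays, of which 39.8% were called higher and 38.7% lower. MiR-124 and miR-204, the 2 called lower, were detected in CT-BM alone and entered only through it. Their count is thus not read against that background. MiR-204, known from the retinal pigment epithelium, was undetected in PYS and at least 4968-fold lower there than in CT-BM (limma adjusted p = 3.52e-13). The neuronal miR-124 was at least 1186-fold lower in PYS (limma adjusted p = 1.39e-12). MiR-184, known from the cornea and lens, was 19.6-fold higher in PYS (log2 change 4.29 ± 0.38 SE, limma adjusted p = 1.93e-07). MiR-211, the fifth on the list, was not detected in any replicate.

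Against each of L-1210 and M1, 1 of the 2 sensory and neural miRNAs tested was called higher in PYS and 1 lower. Over all assays tested, 45.9% were called higher and 27.6% lower against L-1210, and 46% and 27.3% against M1. In L-1210 against CT-BM 1 was higher and 3 lower, where 22.5% of all assays tested were called higher and 45.6% lower. In M1 against CT-BM 1 was higher, 2 lower and 1 not called, where 25.2% of all assays were higher and 44.3% lower. MiR-124 and miR-204 entered both of these comparisons with CT-BM only through CT-BM. In L-1210 against M1 1 was higher and 1 lower, where 25.2% of all assays were higher and 30.7% lower. MiR-9, a neural miRNA, had a mean Ct of 23.9 in PYS, 18.6 in L-1210, 20.1 in M1 and 28.5 in CT-BM. It was thus most abundant in L-1210, where miR-96 and miR-183 were undetermined.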

How the data were processed

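RNA was extracted, reverse transcribed, preamplified and run on cards A and B, per the labels' protocols. The deposited table gives a Ct for each well, and a Ct average that equalled the mean of the wells within 0.001 in 7000 of 7000 cases. How the baseline and threshold were set is not given in the sources used here. The 24 samples are 12 replicates on 2 cards each. Card runs held 367 to 380 of 384 wells.

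Wells of an assay were averaged with a limit of Ct 35 in place of later or undetermined wells; 0.352% of 4263 amplified miRNA wells lay above it. Levels were tested by lmFit and eBayes (limma 3.58.1, R 4.3.3) over the 12 replicates, with Benjamini-Hochberg adjustment over the assays tested in each comparison. An assay was tested if every measured replicate of at least 1 of the compared groups was detected. The comparisons share groups, so their values are not independent. The fitting steps were tested on simulated data. Permutation tests used Python 3.11.15.

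The members and lists were chosen with earlier results of these data known. Named beside them were the other arms of the hairpins, the 5 assays most like the members by mean r, and from each list up to 3 assays with the largest moderated t in PYS against CT-BM. MiR-200a, miR-9, miR-302a and miR-294 were named after their values were seen. The 28 alternatives covered controls, scaling, Ct limit, filter, fold minimum, moderation, card A alone, only the compared groups, the replicate block and left-out replicates. Raw Ct was added after seeing the data.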

Additional observations from a re-analysis of the deposited data

How the results depend on the processing

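Over 28 alternatives, the change of miR-182 in PYS kept its direction and its call against CT-BM (log2 8.62 to 12.90), L-1210 (8.33 to 10.73) and M1 (9.06 to 14.84), and the bounds of miR-96 and miR-183 in PYS stayed called wherever they were tested. With only assays detected in all 12 replicates, the called members fell to 1, miR-182, in each PYS comparison, because that filter leaves only miR-182 to test. MiR-182 in L-1210 against CT-BM had log2 changes of 1.60 with MammU6 alone (adjusted p = 0.0139), 0.98 with the mean of assays detected throughout (0.00602), 4.56 with quantile normalization (3.74e-08) and 0.86 with raw Ct (0.113). It was -1.78 with snoRNA202 alone and -1.02 with both snoRNAs, so 1 member was called with MammU6, with snoRNA202, with both snoRNAs and with quantile normalization, against 0 in the reported fit; the cause was not tested. Quantile normalization turned M1 against CT-BM to 3.83 (adjusted p = 1.85e-07) and left 0 members called in L-1210 against M1 (0.73). With no filter on detection, 2 members were called in L-1210 against CT-BM, 3 in M1 against CT-BM and 3 in L-1210 against M1; miR-96 and miR-183 are at the limit on both sides there, so these are differences between controls. Leaving out 1 replicate at a time changed no call of a member and gave -0.34 to -0.003 for miR-182 in L-1210 against CT-BM and -4.38 to -3.64 in M1 against CT-BM. The Ct limit bounds what could be seen of miR-96 and miR-183 outside PYS.

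Replicate numbers are shared between groups. The 18 correlations of same-numbered replicates ran from -0.45 to 0.33, with 3 over 0.1. Such correlations do not see a shift shared by all assays of a replicate, so they cannot decide whether the samples are paired. With the replicate block the number of members called did not change in any comparison, and miR-182 had a log2 change of 9.54 in PYS against CT-BM (adjusted p = 1.3e-09), with an adjusted p of 5.3e-06 in M1 against CT-BM and 0.742 in L-1210 against CT-BM. The gaps between members were not tested between groups, paired or unpaired, because both members of a pair were measured only in PYS.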
